A study of Mus musculus with 12 samples.

Results

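Chemokines and their receptors were followed in spleen RNA of 8-week-old ICR mice. The genes were all rows of the deposited table whose symbol begins with Ccl, Cxcl, Ccr, Cxcr, Xcl, Xcr, Cx3cl, Cx3cr or Ackr and goes on with a digit, which gave 61 of 21004 genes. They are 38 ligands, 19 signalling receptors and 4 atypical receptors. The 12 libraries fell into 4 groups of 3, which were mice given both busulfan and L.J. at 10 mg/kg, mice given busulfan alone, mice given L.J. at 10 mg/kg alone, and controls. Busulfan is an alkylating drug that kills dividing cells of the bone marrow. The labels give no busulfan dose, no time of collection and no expansion of L.J., and the study's title asks whether L.J. offsets harm that busulfan does to the spleen. The series text also speaks of FMT, which no sample label carries, and groups were taken as labelled. Whether each library is a different animal is not stated, so p-values measure only the spread between these libraries, which may be technical. In whole spleen, fewer cells of a type and less RNA per cell cannot be told apart.

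Chemokines are small secreted proteins that guide cells along gradients by binding receptors coupled to G proteins. In the spleen, Cxcl13 draws B cells with Cxcr5 into follicles, Ccl19 and Ccl21a draw T cells and dendritic cells with Ccr7 into the T cell zone, and Cxcl12 holds cells with Cxcr4. Inflammatory chemokines instead bring blood cells in, for example neutrophils through Cxcr2 and monocytes through Ccr2. The atypical receptors Ackr1 to Ackr4 bind chemokines without signalling through G proteins, and they transport ligands or remove them from the surroundings.

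The promoter sequences of 4 of the genes are shown because Cxcr2 had the only called difference, and Ackr3, Ackr2 and Cxcl10 were among the genes whose groups did not overlap, in the comparison of both agents with busulfan alone. Each window runs from 250 bases before the gene's start to 50 after it, 5′ to 3′ on the gene's strand, from RefSeq on GRCm38.p6. The windows are chr1:74153744-74154043 on the plus strand for Cxcr2, chr1:90203730-90204029 on the plus strand for Ackr3, chr9:121898105-121898404 on the plus strand for Ackr2 and chr5:92348840-92349139 on the minus strand for Cxcl10. Capitals mark matches to any of 3 letter patterns searched on both strands.
Cxcr2: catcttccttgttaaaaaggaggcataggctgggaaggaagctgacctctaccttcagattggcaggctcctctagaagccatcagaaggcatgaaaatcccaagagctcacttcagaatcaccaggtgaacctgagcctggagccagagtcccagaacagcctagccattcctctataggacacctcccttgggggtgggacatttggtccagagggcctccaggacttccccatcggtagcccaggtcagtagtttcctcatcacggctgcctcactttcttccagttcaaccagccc
Ackr3: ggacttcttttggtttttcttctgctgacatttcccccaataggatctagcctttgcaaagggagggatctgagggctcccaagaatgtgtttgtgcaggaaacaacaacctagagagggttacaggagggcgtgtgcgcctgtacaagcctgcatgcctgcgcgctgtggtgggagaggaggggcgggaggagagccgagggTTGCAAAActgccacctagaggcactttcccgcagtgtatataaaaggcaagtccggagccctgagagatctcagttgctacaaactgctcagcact
Ackr2: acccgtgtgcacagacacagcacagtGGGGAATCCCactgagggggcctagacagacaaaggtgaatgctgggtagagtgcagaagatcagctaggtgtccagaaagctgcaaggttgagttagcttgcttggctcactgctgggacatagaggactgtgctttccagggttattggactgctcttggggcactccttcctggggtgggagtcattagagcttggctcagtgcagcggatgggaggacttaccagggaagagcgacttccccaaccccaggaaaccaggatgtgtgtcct
Cxcl10: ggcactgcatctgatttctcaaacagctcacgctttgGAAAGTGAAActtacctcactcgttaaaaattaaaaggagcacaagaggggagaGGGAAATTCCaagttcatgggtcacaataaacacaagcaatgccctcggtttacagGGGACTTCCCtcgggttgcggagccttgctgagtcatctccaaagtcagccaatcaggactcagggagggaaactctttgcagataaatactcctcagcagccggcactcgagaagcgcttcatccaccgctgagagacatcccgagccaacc

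The first pattern was GAAA, any 2 bases and GAAA again, which resembles the element bound by interferon-activated factors. The next was GGGA, any 4 bases and CC, which resembles the site of NF-kappaB, and the last was TTGC, any 2 bases and AA, which resembles the site of C/EBP proteins. The Cxcl10 window held the interferon-type pattern at bases 38 to 47 and the NF-kappaB-type pattern at bases 92 to 101 and 148 to 157, counted from 1 at the 5′ end. The Ackr2 window held the NF-kappaB-type pattern at bases 27 to 36, the Ackr3 window the C/EBP-type pattern at bases 204 to 211, and the Cxcr2 window none of the 3. RefSeq windows were matched for 46 of the 61 genes, 53 windows in all. Of these, 22 (41.5%) held the NF-kappaB-type pattern, against 20.7% of all 32817 windows. The interferon-type pattern was in 3 (5.7%), against 3.4%, and the C/EBP-type pattern in 7 (13.2%), against 10.8%. Overlapping windows were counted separately. Windows 1 and 2 of Ccl27a overlap, as do those of its near-identical copy Ccl27b. All of these held the same C/EBP-type and NF-kappaB-type matches, so the shares by window count some matches more than once. Cxcl10 was the only one of the 4 windows shown that held more than one of these patterns. Ccl3, Ccr6, Cxcr6 and Ackr4 also did not overlap in that comparison, and their windows are not printed. Those of Ccl3, Cxcr6 and Ackr4 held none of the 3 patterns. Window 2 of Ccr6 held the NF-kappaB-type pattern and window 1 held none.

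The deposited values are FPKM, that is, sequenced fragments scaled by the length of the transcript and by the size of the library, so levels can be compared between genes. The 5 genes that averaged 100 FPKM or more over the libraries were Ccl21a, Cxcl12, Ccl5, Cxcl13 and Cxcr4, and the 5 highest genes held between 68.5% and 72.3% of all chemokine and receptor FPKM in a library. The ligands of the white pulp thus headed the ranking, together with Ccl5, a product of T and NK cells. Of the 61 genes, 40 averaged 1 FPKM or more in 1 group or several and were tested, namely 21 ligands, 15 signalling receptors and the 4 atypical receptors. The other 21 reached at most 1.66 FPKM in any library (Ccl27b), 16 genes stayed under 1 FPKM in every library, and Ccl21c was listed at 0 throughout. Nearest to the limit were Cxcl5, which passed with a highest group mean of 1.43 FPKM, and Cxcl1, which did not with 0.99 FPKM. Reads shared by near-identical copies (Ccl21a, Ccl21b and Ccl21c, or Ccl27a and Ccl27b) may be split between them. RefSeq places 5 ligand genes within 83525778 to 83664683 of chromosome 11 (Ccl5, Ccl9, Ccl6, Ccl3, Ccl4).

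**Figure D1:**
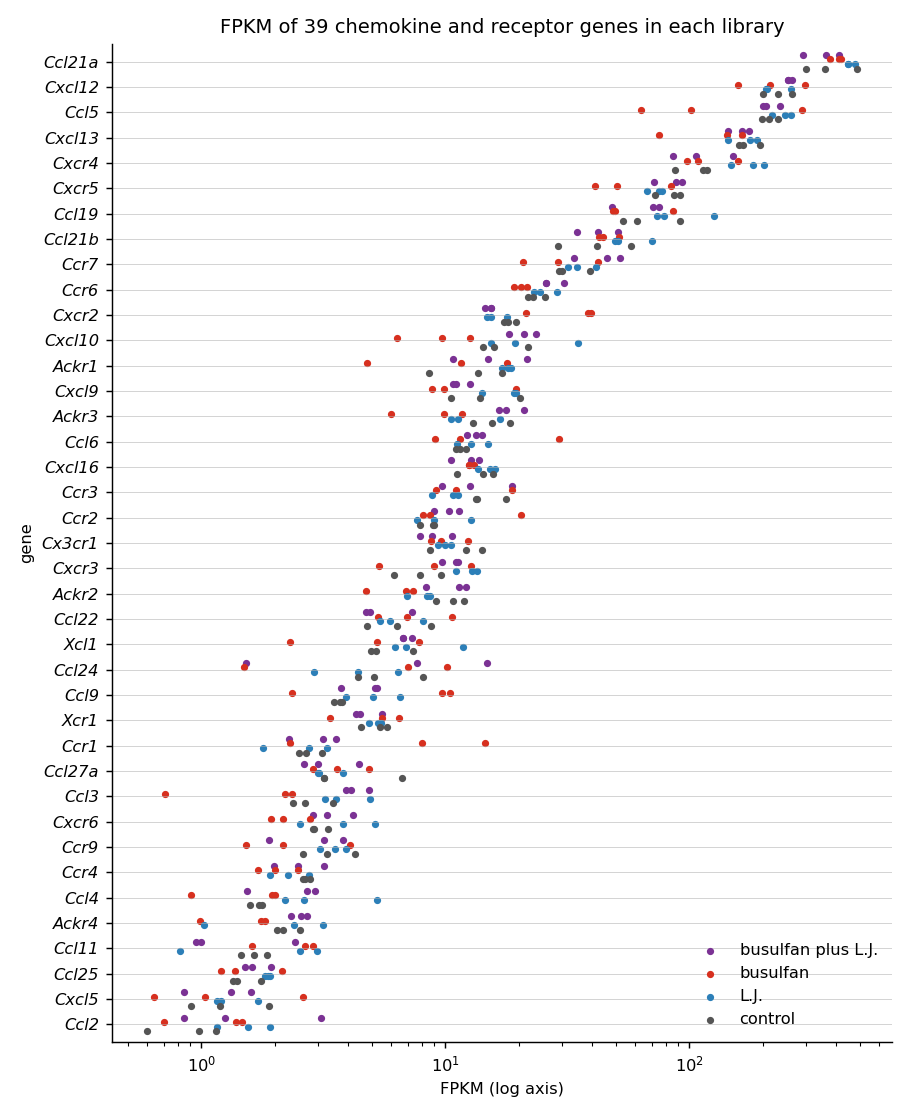
FPKM on a log axis of 39 tested chemokine and receptor genes, 1 point per library, coloured by group (busulfan plus L.J., busulfan, L.J., control; 3 libraries each), ordered by mean level. The 5 genes that averaged 100 FPKM or more are at the top, led by Ccl21a, and Cxcl16 had the narrowest range over the libraries (1.51-fold) and Ccl24 the widest (9.85-fold).

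The libraries differed in ways that touch these genes. FPKM sums lay between 511876 and 580364 per library, 12249 to 13129 genes reached 1 FPKM, and chemokine and receptor genes made up 0.24% to 0.348% of the sum. A marker list is summarised as the mean log2(FPKM + 1) of its genes. Markers of spleen were present, with 8 B cell markers at 6.71 to 7.86 and 8 red pulp and marginal zone macrophage markers at 4.58 to 5.64 over the libraries. Pancreatic acinar markers (12 genes) lay at 0.47 to 3.69 with both agents, at 11.2, 7.43 and 3.24 in busulfan libraries 1 to 3, at up to 8.48 with L.J. alone (L.J. 3), and at 0.31 to 0.35 in controls, where Try4 and Clps were at 0. Neutrophil markers (10 genes, none at 0) were between 3.97 and 5.17 with both agents, at 8.64, 7.85 and 5.15 in busulfan libraries 1 to 3, between 4.97 and 5.62 with L.J. alone and between 4.34 and 4.89 in controls. Results were therefore also computed without busulfan 1, busulfan 2 and L.J. 3, the libraries with the highest acinar values, without busulfan 3, and with the acinar value as a covariate.

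With L.J. added to busulfan, against busulfan alone, 1 of the 40 genes passed the test, and this was Cxcr2, which was lower. Differences are on the log2(FPKM + 1) scale, with limma and Benjamini-Hochberg adjustment over all 13138 genes and a threshold of 0.05. Over all genes 1.66% were called (218), with 0.578% lower and 1.08% higher, so 1 of 40 is close to the background. At an unadjusted p under 0.05, 10 of 40 genes passed, against 23.2% of all genes, and the libraries of the groups did not overlap for 8 of 40, against 23.1%. Of those 8, Ackr3, Ccl3, Ackr2, Cxcl10, Ccr6, Cxcr6 and Ackr4 were higher with both agents (14.1% of all genes were) and Cxcr2 was lower (9%). The median difference was 0.14 over the 40 genes and 0.05 over all genes. The number called was 0 without any 1 library of busulfan plus L.J. and without busulfan 2, L.J. 2, L.J. 3, control 1 or control 2. It was 3 without busulfan 1, where 5.77% of all genes were called, and 11 without busulfan 3, where 10.4% were (Ccl3, Ackr3, Ccr7, Ccr1, Ccr6, Ackr2, Ccl9, Cxcr5, Ccl5, Cxcl10 and Cxcr2).

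None of the 40 genes was called with busulfan against control by limma, where 0.0304% of all genes were called (4). An unadjusted p under 0.05 was reached by 7 of 40, against 12.2% of all genes. The libraries did not overlap for 9 of 40, against 12.9%. In 8 of these 9 the busulfan libraries were lower (Ackr2, Ackr3, Cxcl10, Ccl3, Ccr4, Ccr6, Ackr4 and Cxcr6), against 7.31% of all genes, and in Cxcr2 they were higher, against 5.62%. The median difference was -0.14, beside -0.03 over all genes. Without busulfan 3, 6 of the 40 genes were called, beside 6.27% of all genes (829) in that fit (Ccr1, Ackr2, Ccl9, Cxcr5, Ccl5 and Cxcr2).

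With L.J. alone against control, limma also called 0 of 40, beside 0.0304% of all genes (4). An unadjusted p under 0.05 was reached by 3 of 40 (Cxcr4, Cxcr3 and Ccl4), against 8.91%, and libraries did not overlap for 8 of 40, against 18.8%. With both agents against control, limma called 0 of 40, beside 0.0609% of all genes (8), and an unadjusted p under 0.05 was reached by 0 of 40, against 19%. Libraries did not overlap for 5 of 40 there, against 35.1%. The difference between the effect of L.J. with busulfan and without it (the interaction) was called for 0 of 40 and 0% of all genes (0), with 5 of 40 and 11.5% at an unadjusted p under 0.05. A test for any difference among the 4 groups called 0 of 40, beside 0.0837% of all genes (11), with 7 of 40 and 16.7% unadjusted. Without busulfan 3 the interaction was called for 6 of 40 and 3.87% of all genes, and the test among groups for 5 of 40 and 4.15%. The 2 comparisons with busulfan alone share its 3 libraries, and those with control share the controls, so their values are not independent.

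**Figure D2:**
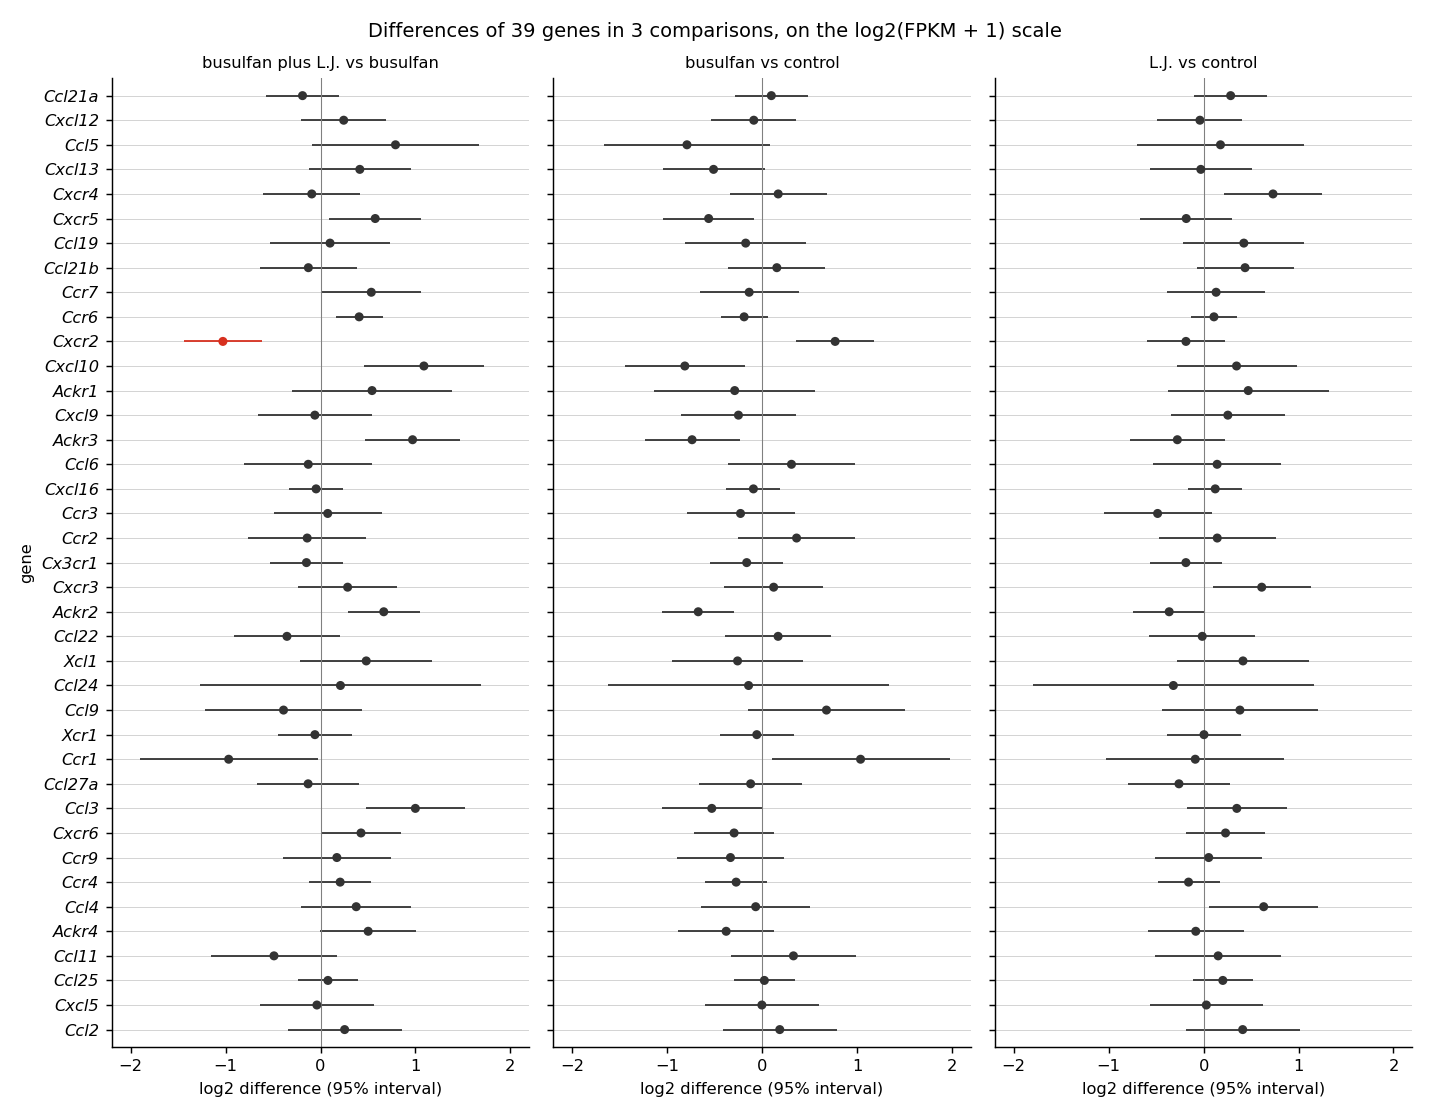
Log2 differences of 39 tested genes on the log2(FPKM + 1) scale with 95% intervals, for busulfan plus L.J. against busulfan, busulfan against control and L.J. against control (3 libraries per group). Red marks an adjusted p under 0.05, which Cxcr2 alone reached, in the comparison of both agents with busulfan, at -1.03.

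Cxcr2 is the receptor through which neutrophils follow Cxcl1, Cxcl2, Cxcl3 and Cxcl5 (gene 12765, chromosome 1, 74153994 to 74161246, GRCm38.p6). It was at 14.54, 15.44 and 15.42 FPKM with both agents and at 39.41, 38.26 and 21.44 FPKM with busulfan alone. L.J. alone gave 14.87, 17.82 and 15.33 FPKM, and controls gave 19.49, 18.11 and 17.34 FPKM. All 3 busulfan libraries were above those of every other group, with busulfan 3 nearest to them, and the libraries with both agents were below all controls. Cxcr2 fell to 15.1 ± 0.5 FPKM with both agents, against 33.0 ± 10.1 FPKM with busulfan (SD, n = 3 each), the log2 difference being -1.03 (SE 0.19, 95% interval -1.44 to -0.62, limma adjusted p = 0.0377). Busulfan against control gave 0.77 (0.36 to 1.18, limma adjusted p = 0.187), L.J. against control -0.19, and both agents against control -0.26. The interaction was -0.84 (limma adjusted p = 0.271). In the comparison with busulfan the direction held in all 23 alternatives, with differences of -1.30 to -0.48 and adjusted p of 0.000102 to 0.234, and the threshold was passed in 11. Without busulfan 1, busulfan 2 and L.J. 3 the difference was -0.48 (limma adjusted p = 0.143), and with the acinar covariate -0.73 (limma adjusted p = 0.234). The limma adjusted p was 0.119, 0.104 and 0.132 without libraries 1, 2 and 3 of busulfan plus L.J., 0.097 without busulfan 2, 0.0574 without L.J. 2, 0.0506 without L.J. 3, 0.0591 without control 1 and 0.0535 without control 2. In the comparison with busulfan, neutrophil markers moved the same way as Cxcr2, with all 10 lower with both agents (median -2.94) and none called. Against control, all 10 were higher with busulfan, as Cxcr2 was. With L.J. against control, 9 of 10 were higher (median 0.60) while Cxcr2 was lower. The part of these markers in the Cxcr2 difference was not tested.

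**Figure D3:**
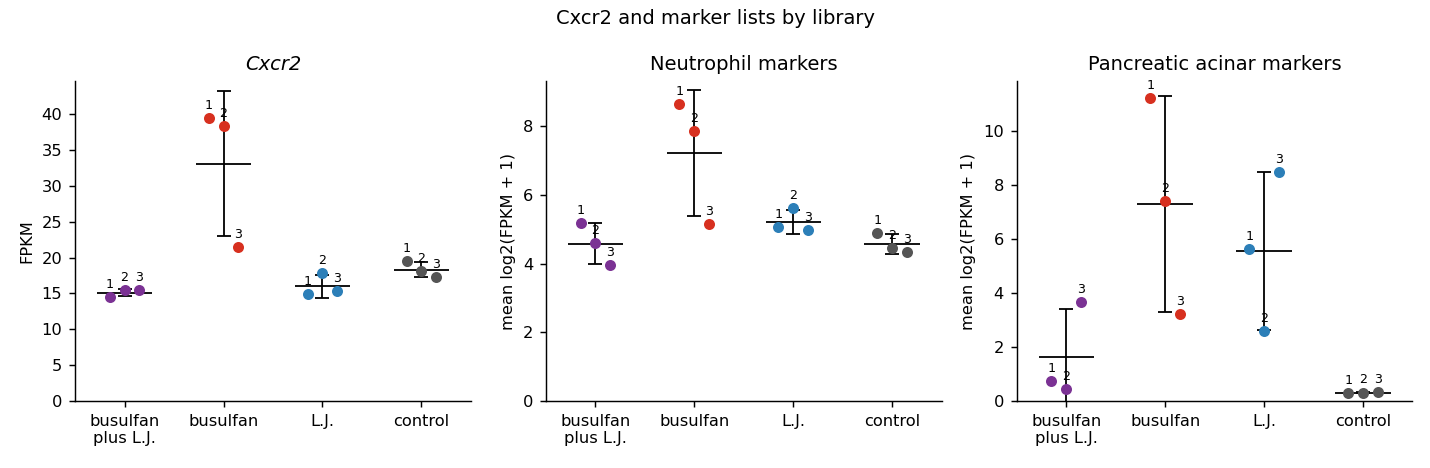
Cxcr2 in FPKM, and the mean log2(FPKM + 1) of 10 neutrophil and 12 pancreatic acinar markers, by group from left to right busulfan plus L.J., busulfan, L.J. and control. Points are libraries numbered by replicate, bars are means and whiskers SD (n = 3). Busulfan 1 was highest in all 3 panels, busulfan 2 came next for Cxcr2 and the neutrophil markers, and busulfan 3 had the lowest Cxcr2 of its group, at 21.44 FPKM.

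Those ligands of Cxcr2 that the symbol rule matches had low values. This does not cover ligands outside the rule, such as the platelet chemokine Ppbp, which was abundant and is given further below. Cxcl1, Cxcl2, Cxcl3 and Cxcl5 lay between 0 and 2.61 FPKM over all 12 libraries, and Cxcl5, an epithelial and platelet-associated ligand, was the only tested one. It had 1.32, 1.6 and 0.85 FPKM with both agents and 2.61, 1.04 and 0.64 FPKM with busulfan, a difference of -0.04 with overlapping libraries. Cxcr1, the other receptor of this branch, averaged 0.09 FPKM with both agents, 0.25 with busulfan, 0.19 with L.J. and 0.11 in controls.

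All 4 atypical receptors were higher with both agents than with busulfan alone and lower with busulfan alone than in controls, though none passed the test in either comparison. Of all genes, 56.9% were higher with both agents than with busulfan and 44.6% were higher with busulfan than in controls. Their median log2 difference was 0.60 with both agents against busulfan, beside 0.14 over the 40 genes, and -0.53 with busulfan against control, beside -0.14. Ackr3, which takes up Cxcl12 (gene 12778, chromosome 1, 90203980 to 90215724), had 17.76, 16.57 and 21.02 FPKM with both agents and 9.88, 11.74 and 5.97 FPKM with busulfan. L.J. alone gave 11.28, 16.74 and 10.56 FPKM and controls 18.34, 13.02 and 15.51 FPKM. The busulfan libraries were below all libraries with both agents and all controls. The means were 18.5 ± 2.3 FPKM with both agents and 9.20 ± 2.95 FPKM with busulfan (SD, n = 3 each), the log2 difference being 0.97 (SE 0.23, 0.47 to 1.47, limma adjusted p = 0.0568). Busulfan against control gave -0.74 (limma adjusted p = 0.264), and the interaction was 1.25 (limma adjusted p = 0.213).

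Ackr2, a scavenger of inflammatory CC chemokines found on lymphatic endothelium and on innate-like B cells in mice (gene 59289, chromosome 9, 121898355 to 121911075), followed the same order. It had 8.33, 12.10 and 11.40 FPKM with both agents, 4.75, 6.90 and 7.35 with busulfan, 8.4, 8.63 and 6.98 with L.J., and 11.90, 10.74 and 9.14 in controls. The busulfan libraries were again below all those with both agents and all controls, with differences of 0.67 (SE 0.17, limma adjusted p = 0.0688) and -0.67 (limma adjusted p = 0.211). Its interaction was 1.03 (0.49 to 1.56, limma adjusted p = 0.192), the smallest p of the 40 genes in that test. Ackr4, which takes up Ccl19, Ccl21a and Ccl25, had 2.56, 2.71 and 2.33 FPKM with both agents and 0.99, 1.83 and 1.75 FPKM with busulfan, a difference of 0.50 without overlap (limma adjusted p = 0.219). Ackr1, a chemokine-binding receptor of venules and erythroid cells, had 10.76, 21.68 and 14.98 FPKM with both agents and 4.78, 17.92 and 11.61 FPKM with busulfan, and these groups overlapped (0.54, limma adjusted p = 0.420).

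Without busulfan 1, busulfan 2 and L.J. 3 the difference of both agents against busulfan was 1.47 for Ackr3 (limma adjusted p = 0.0862), 0.46 for Ackr2, 0.36 for Ackr4 and 0.36 for Ackr1. Without busulfan 3, Ackr3 (0.72, limma adjusted p = 0.0456) and Ackr2 (0.77, limma adjusted p = 0.0284) were called. All 4 stayed higher with both agents in these settings, with the acinar covariate and under both other scalings, while against control 2 of 4 were higher with busulfan once the acinar covariate was used. Endothelial markers (6 genes) were at 3.54 to 3.71 with both agents, 2.79 to 3.16 with busulfan, 3.26 to 3.37 with L.J. and 3.26 to 3.53 in controls, with all 6 higher with both agents than with busulfan and 3 called (Stab2, Tek and Kdr). Their part in the receptor values was not tested. RefSeq spans of Ackr1 and Ackr4 overlap Cadm3 and Acad11, and the sources used here do not say how strand was handled.

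**Figure D4:**
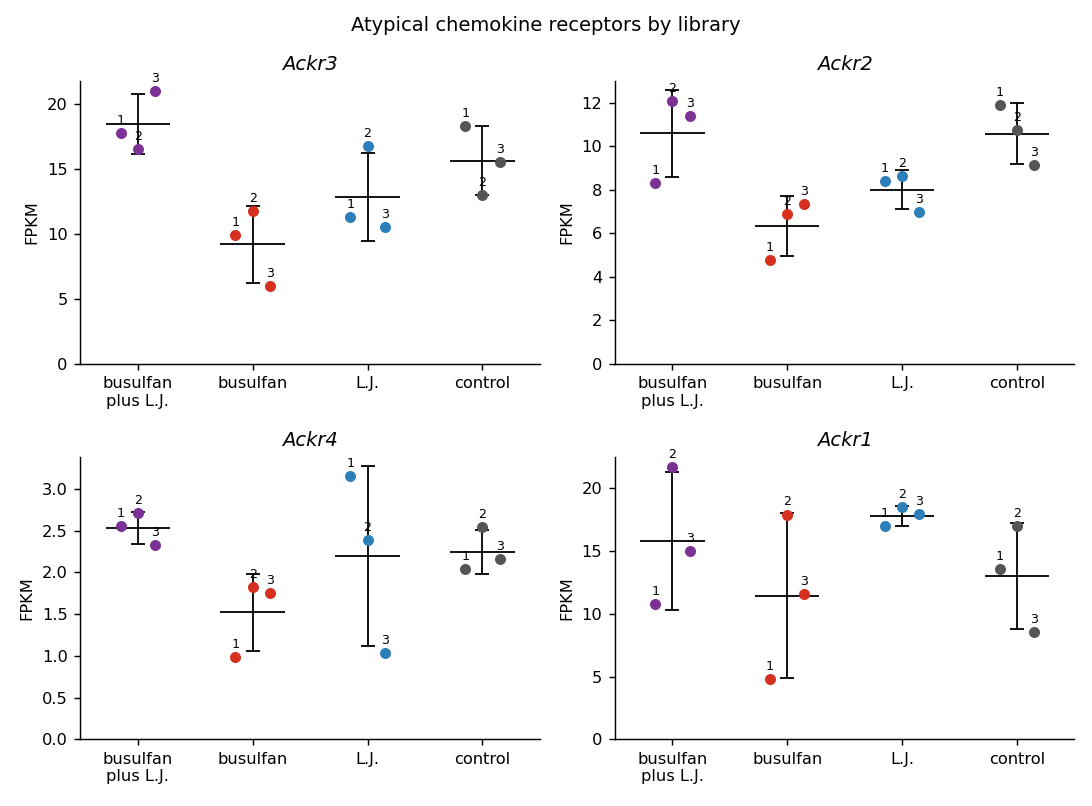
FPKM of Ackr3, Ackr2, Ackr4 and Ackr1 by group from left to right busulfan plus L.J., busulfan, L.J. and control, with libraries as numbered points, means as bars and SD as whiskers (n = 3). The busulfan libraries lay below those with both agents and below controls for Ackr3, Ackr2 and Ackr4, and overlapped both for Ackr1.

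Among interferon-induced ligands of Cxcr3, which draw activated T and NK cells, Cxcl10 and Cxcl9 differed in pattern. Cxcl10 (gene 15945, chromosome 5, 92346638 to 92348889), whose promoter with 3 matches is printed above, had 23.48, 18.21 and 20.91 FPKM with both agents and 9.71, 6.36 and 12.57 FPKM with busulfan. L.J. alone gave 15.42, 34.82 and 19.31 FPKM and controls 21.75, 15.76 and 14.23 FPKM. All busulfan libraries were below every library of the other groups. The log2 difference was 1.09 with both agents against busulfan (SE 0.29, 0.46 to 1.72, limma adjusted p = 0.0704) and -0.81 with busulfan against control (limma adjusted p = 0.305). Cxcl9 had 10.76, 11.08 and 12.64 FPKM with both agents and 9.91, 8.82 and 19.47 FPKM with busulfan, which overlapped (-0.06, limma adjusted p = 0.921). Cxcr3 itself had 11.01, 12.83 and 13.44 FPKM with L.J. and 9.58, 6.15 and 7.88 FPKM in controls, without overlap (0.61, limma adjusted p = 0.548). Cxcl10 lies within the RefSeq span of Art3, so its value carries the uncertainty of strand handling.

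The inflammatory CC ligands Ccl3 and Ccl4 attract monocytes, NK cells and T cells, and Ccl3 acts through Ccr1. Ccl3 (gene 20302, chromosome 11, 83647843 to 83649378) had 4.09, 3.90 and 4.87 FPKM with both agents and 0.71, 2.2 and 2.35 FPKM with busulfan. L.J. alone gave 3.22, 3.56 and 4.93 FPKM and controls gave 2.38, 2.65 and 3.47 FPKM. The busulfan libraries were below all others, by a narrow margin against controls. The difference was 1.00 with both agents against busulfan (SE 0.24, 0.48 to 1.52, limma adjusted p = 0.0586), -0.53 with busulfan against control (limma adjusted p = 0.406), and 0.47 with both agents against control (limma adjusted p = 0.299). Ccl4 had 2.2, 2.63 and 5.24 FPKM with L.J. and 1.72, 1.58 and 1.77 FPKM in controls, without overlap (0.63, limma adjusted p = 0.548). RefSeq spans of Ccl3 and Ccl4 overlap each other.

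Ccl5 and the receptor Ccr1 turned on which busulfan library was read. Ccl5 (gene 20304, chromosome 11, 83525778 to 83530518) had 200.25, 206.34 and 234.25 FPKM with both agents, 63.21, 101.42 and 287.80 with busulfan, 217.94, 246.79 and 261.45 with L.J., and 212.68, 198.54 and 229.80 in controls. Busulfan 1 and 2 were the lowest of the 12 libraries and busulfan 3 the highest. The difference with both agents against busulfan was 0.79 (limma adjusted p = 0.258), 1.40 without busulfan 3 (limma adjusted p = 0.0022) and -0.43 without busulfan 1, busulfan 2 and L.J. 3 (limma adjusted p = 0.201). NK and cytotoxic markers (7 genes) were at 3.14 to 3.31 with both agents and at 2.03, 1.91 and 2.89 in busulfan libraries 1 to 3. T cell markers (8 genes) were at 4.54 to 5.33 with both agents and at 4.95, 4.71 and 5.62 in busulfan libraries 1 to 3. Busulfan 3 was the highest of all libraries for the T cell list. The part of either list in Ccl5 was not tested. Ccr1, a receptor of monocytes and neutrophils, had 3.57, 3.14 and 2.28 FPKM with both agents, 14.59, 8.02 and 2.30 with busulfan, 1.79, 3.27 and 2.75 with L.J., and 3.13, 2.52 and 2.69 in controls. Only busulfan 1 and 2 stood above the rest. The difference with both agents against busulfan was -0.97 (limma adjusted p = 0.205), -1.58 without busulfan 3 (limma adjusted p = 0.00489) and 0.26 without busulfan 1, busulfan 2 and L.J. 3 (limma adjusted p = 0.593).

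Ccl9 and Ccl6, which are ligands of Ccr1 in mice, each had both their highest and their lowest library in the busulfan group. Ccl9 had 5.16, 3.74 and 5.27 FPKM with both agents, 9.68, 10.47 and 2.36 with busulfan, and 3.69, 3.49 and 3.77 in controls. Its L.J. libraries had 6.53, 5.03 and 3.90 FPKM, above all controls. Ccl6 had 12.31, 13.38 and 14.10 FPKM with both agents, 9.08, 29.07 and 11.47 with busulfan, and 11.48, 11.05 and 12.20 in controls. Its L.J. libraries had 11.13, 14.98 and 12.77 FPKM. Ccr2, the receptor that brings monocytes out of the marrow, had 10.32, 11.34 and 8.98 FPKM with both agents, 8.63, 20.37 and 8.07 with busulfan, and 8.99, 7.87 and 8.89 in controls. Its L.J. libraries had 7.64, 12.70 and 8.98 FPKM. Ccl6 and Ccr2 were highest of all libraries in busulfan 2, while Ccl9 was high in busulfan 1 and 2. Monocyte markers (6 genes) were also highest in busulfan 2, at 4.71, and lay at 4.09 and 3.72 in busulfan 1 and 3. The groups without busulfan alone gave 3.30 to 4.13, and the part of these markers was not tested. None of Ccl9, Ccl6 and Ccr2 passed the test.

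The ligands that lay out the white pulp showed no called difference in any comparison. Cxcl12 (gene 20315, chromosome 6, 117168535 to 117181368) had 252.23, 253.34 and 262.64 FPKM with both agents, 213.89, 298.50 and 157.74 with busulfan, 206.22, 260.99 and 207.12 with L.J., and 231.22, 199.50 and 262.02 in controls. Cxcl13 (gene 55985, chromosome 5, 95956939 to 95961068) had 176.02, 164.75 and 144.39 FPKM with both agents, 142.49, 164.51 and 74.96 with busulfan, 177.74, 189.02 and 143.62 with L.J., and 194.77, 165.56 and 159.15 in controls. Groups overlapped for both, and busulfan 3 was the lowest library for each. With both agents against busulfan, the difference was 0.24 (-0.20 to 0.69, limma adjusted p = 0.498) for Cxcl12 and 0.41 (limma adjusted p = 0.331) for Cxcl13. Without busulfan 1, busulfan 2 and L.J. 3 it was 1.09 for Cxcl13 (limma adjusted p = 0.0759). Markers of reticular and follicular dendritic stroma (10 genes) were also lowest in busulfan 3, at 3.23, against 3.39 to 3.83 in all groups without busulfan alone, and their part was not tested.

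Ccl19 (gene 24047, chromosome 4, 42754525 to 42756365) had 70.68, 48.16 and 75.02 FPKM with both agents, 85.63, 48.48 and 49.73 with busulfan, 78.80, 125.78 and 73.29 with L.J., and 60.83, 53.49 and 91.40 in controls. Ccl21a, the most abundant of the 61 genes, averaged 354 ± 59 FPKM with both agents, 401 ± 23 with busulfan, 456 ± 16 with L.J. and 382 ± 95 in controls (SD, n = 3 each). Groups overlapped for both ligands in every pair given here except Ccl21a with L.J. against both agents or busulfan, pairs that were not tested. With both agents against busulfan the Ccl19 difference was 0.10 (-0.54 to 0.74, limma adjusted p = 0.868), and with L.J. against control 0.42 (limma adjusted p = 0.599). Ccl21b had 50.83, 34.55 and 42.18 FPKM with both agents, 51.59, 42.60 and 44.28 with busulfan, 50.78, 49.47 and 70.29 with L.J., and 41.99, 28.81 and 57.63 in controls, and L.J. against control gave 0.44 with overlap (limma adjusted p = 0.556). A p that misses the threshold does not show that the levels were equal.

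None of the receptors of the white pulp ligands was called in any comparison of all 12 libraries. Cxcr4 (gene 12767, chromosome 1, 128588199 to 128592299) had 201.70, 148.20 and 181.81 FPKM with L.J. alone and 87.50, 118.05 and 113.75 FPKM in controls, without overlap. The log2 difference was 0.73 (SE 0.23, 0.22 to 1.24), the smallest p of the 40 genes in that comparison, with a limma adjusted p of 0.548. With both agents Cxcr4 had 106.73, 85.87 and 150.88 FPKM and with busulfan 108.29, 158.43 and 97.82 FPKM, which overlapped (-0.09), and the interaction was -0.82 (limma adjusted p = 0.366). Cxcr5 of B cells had 87.95, 71.56 and 93.63 FPKM with both agents, 41.13, 50.48 and 83.97 with busulfan, 75.29, 76.90 and 67.27 with L.J., and 91.87, 72.02 and 86.57 in controls. Busulfan 1 and 2 were the lowest libraries and busulfan 3 lay among the controls. The difference with both agents against busulfan was 0.58 (limma adjusted p = 0.158), 0.87 without busulfan 3 (limma adjusted p = 0.00925) and -0.002 without busulfan 1, busulfan 2 and L.J. 3. B cell markers (8 genes) followed the same libraries, between 7.39 and 7.70 with both agents, at 6.72, 6.71 and 7.50 in busulfan 1 to 3, and between 7.58 and 7.86 in controls, and their part was not tested.

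Ccr7, the receptor for Ccl19 and Ccl21a, had 51.77, 33.67 and 46.13 FPKM with both agents and 29.01, 20.86 and 42.22 FPKM with busulfan (0.53, limma adjusted p = 0.206). Ccr6, the receptor of Ccl20 on B cells and some T cells (gene 12458, chromosome 17, 8236041 to 8258519), had 30.63, 25.82 and 25.73 FPKM with both agents, 20.47, 19.04 and 21.61 with busulfan, 24.36, 28.69 and 23.01 with L.J., and 22.90, 21.73 and 25.53 in controls. Its busulfan libraries were the tightest of these receptors and below those of every other group, by a narrow margin against controls. The Ccr6 difference was 0.41 with both agents against busulfan (SE 0.11, limma adjusted p = 0.077). With busulfan against control it was -0.19 (limma adjusted p = 0.509). Its ligand Ccl20 was at 0 in 11 libraries and at 0.08 FPKM in the other. RefSeq spans of Cxcr5 and Ccr6 overlap Bcl9l and Gm33799.

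**Figure D5:**
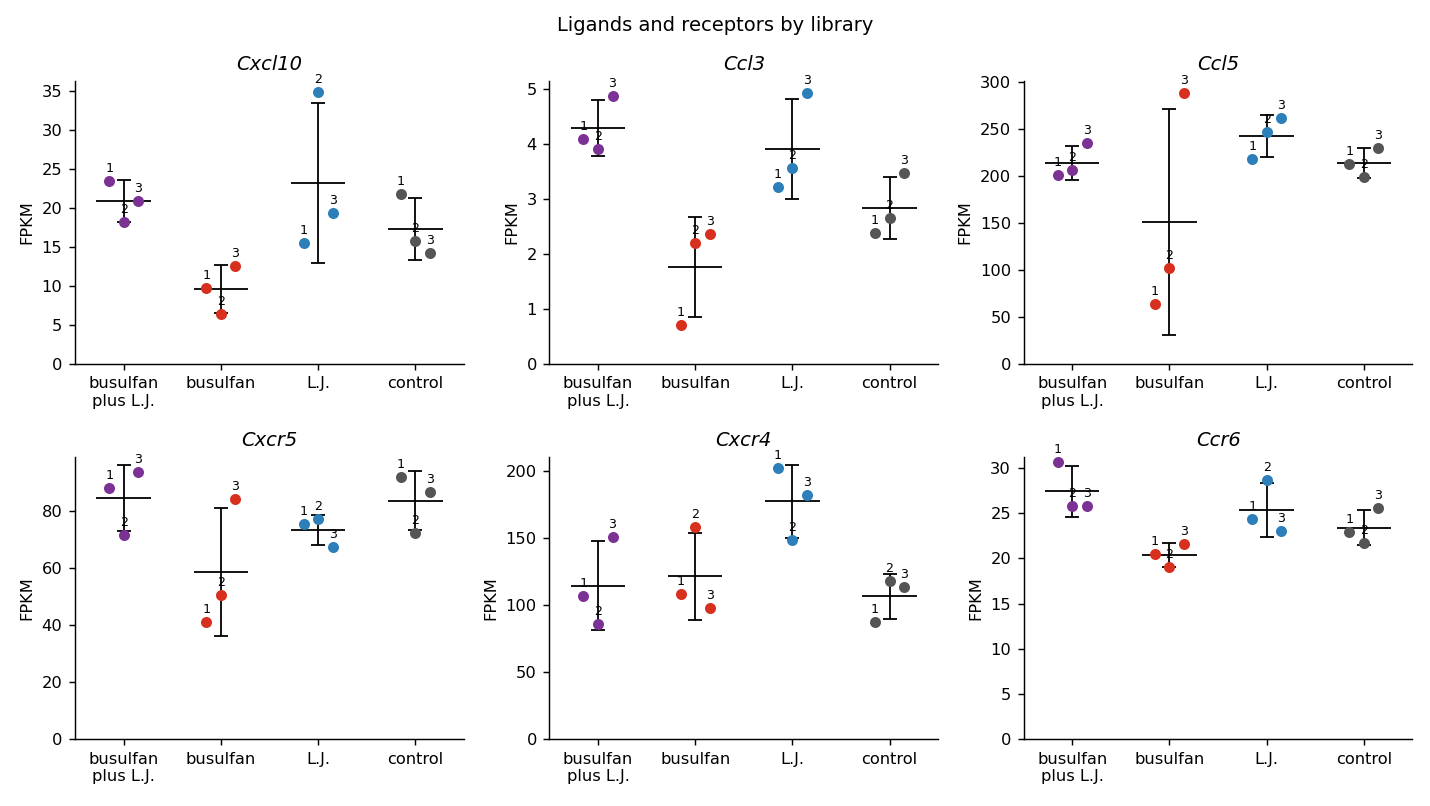
FPKM of Cxcl10, Ccl3, Ccl5, Cxcr5, Cxcr4 and Ccr6 by group from left to right busulfan plus L.J., busulfan, L.J. and control, with libraries as numbered points, means as bars and SD as whiskers (n = 3). For Ccl5 and Cxcr5 busulfan 3 sits far above busulfan 1 and 2, while for Cxcl10, Ccl3 and Ccr6 all 3 busulfan libraries sit below the other groups. For Ccl3 and Ccr6 the margin against controls is narrow.

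The remaining tested genes passed in no comparison. Ccr3, the eotaxin receptor of eosinophils, had 12.56, 18.66 and 9.67 FPKM with both agents and 9.13, 18.82 and 11.10 FPKM with busulfan (0.08, limma adjusted p = 0.890), which overlapped. Of 3 tested eosinophil markers, the granule genes Prg2 (-3.14, limma adjusted p = 0.0135) and Epx (-1.93, limma adjusted p = 0.0377) fell in that comparison, and the receptor gene Il5ra did not pass (0.07, limma adjusted p = 0.904). With L.J. alone Ccr3 had 8.81, 10.78 and 11.30 FPKM and in controls 17.65, 13.49 and 13.41 FPKM, without overlap (-0.48, limma adjusted p = 0.556). Its ligand Ccl24 had 1.52, 14.78 and 7.68 FPKM with both agents and 7.03, 1.5 and 10.11 FPKM with busulfan, the widest spread of the tested genes. Cxcr6, which guides resident T and NKT cells, had 4.18, 2.86 and 3.26 FPKM with both agents and 2.16, 1.93 and 2.79 FPKM with busulfan. These groups did not overlap, by a narrow margin (0.43, limma adjusted p = 0.209). Cxcr6 lies within the RefSeq span of Fyco1, so its value carries the uncertainty of strand handling. Its ligand Cxcl16 stayed between 10.53 and 15.92 FPKM in all libraries. Xcl1, made by NK and CD8 T cells, and its dendritic cell receptor Xcr1 differed by 0.48 and -0.06 with both agents against busulfan, and Cx3cr1, the fractalkine receptor of monocytes, by -0.15. With both agents against control, the smallest p after Ccl3 (given above) belonged to Ccr6 (0.22, limma adjusted p = 0.305), Cx3cr1 (-0.31, limma adjusted p = 0.339), Cxcr3 (0.41, limma adjusted p = 0.353) and Ccr7 (0.40, limma adjusted p = 0.364). Cx3cr1 had 7.86, 8.82 and 10.60 FPKM with both agents and 12.18, 8.63 and 14.15 FPKM in controls, which overlapped.

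Genes that carry the signal downstream of the receptors were examined as a list of 67 found symbols, all tested. With both agents against busulfan 45 were higher and 22 lower, beside 56.9% higher over all genes, with a median of 0.11, and 2 were called, beside 1.66% of all genes. Arrb2, the beta-arrestin that turns off and internalises chemokine receptors, fell to 100.22, 79.22 and 108.19 FPKM with both agents, against 181.31, 179.08 and 164.18 FPKM with busulfan, the log2 difference being -0.87 (SE 0.16, limma adjusted p = 0.0377). Crkl, an adaptor protein used by integrins and chemokine receptors, rose to 17.12, 17.91 and 16.66 FPKM with both agents, against 13.99, 12.06 and 12.79 FPKM with busulfan, a difference of 0.39 (SE 0.08, limma adjusted p = 0.0480). Neither gene overlapped between these groups. Arrb2 passed the threshold in 10 of 23 alternatives, with an adjusted p of 0.0112 to 0.232, and Crkl in 5 of 23, with 0.0112 to 0.231, each in the same direction throughout. Arrb2 missed it without any 1 library of busulfan plus L.J. and without busulfan 2, L.J. 2, L.J. 3, control 1 or control 2 (limma adjusted p of 0.0506 to 0.132). Crkl missed it without any 1 library other than busulfan 1 or busulfan 3 (limma adjusted p of 0.0543 to 0.141). None of the 67 genes was called with busulfan against control (36 higher, beside 44.6% of all genes), L.J. against control (46 higher, beside 54%) or both agents against control (43 higher, beside 56.1%).

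Of 17 cytokine and transcription factor genes that set chemokine production, 15 were tested and none was called in these comparisons. Ltb, which with Lta maintains white pulp chemokines, had 235.71, 176.05 and 218.52 FPKM with both agents and 152.25, 90.15 and 208.71 FPKM with busulfan (0.55, limma adjusted p = 0.216). Ifng, the inducer of Cxcl9 and Cxcl10, stayed at 1.30 FPKM or below in every library. The platelet chemokines Pf4 and Ppbp, whose symbols the rule does not match, were more abundant than most of the 61 genes. Pf4 had 117.29, 74.54 and 71.76 FPKM with both agents, 235.19, 66.11 and 40.73 with busulfan, 109.71, 218.16 and 112.47 with L.J., and 116.38, 59.86 and 55.02 in controls, and all groups overlapped in the comparisons made. Ppbp had 383.91, 267.87 and 269.18 FPKM with both agents, 588.52, 515.78 and 408.69 with busulfan, 831.50, 950.97 and 447.69 with L.J., and 749.72, 482.98 and 516.89 in controls. The libraries with both agents were below those of every other group for Ppbp, with a difference of -0.92 against control (limma adjusted p = 0.178).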

How the data were processed

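RNA was measured by sequencing of total RNA from 12 spleen libraries in 4 groups of 3, grouped by the labels. The authors deposited 1 table of FPKM values for 21004 genes, with 1 column per library, per the file headers. Bowtie 0.12.2 and the mouse build mm10 appear in the submitters' processing notes, while the sources used here name no counting tool, annotation or strand handling. Sequencing depth is unknown: a search of the deposited FPKM values for whole-fragment steps gave whole values within 0.1 for 39.0% of 1029 values, where 20% would follow from even spread, so no count test or counting interval was made. All 12 columns matched a sample by title.

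The 13138 genes whose mean reached 1 FPKM in any group were tested. Values were log2(FPKM + 1), which understates differences of low genes. Group means were estimated over the 12 libraries together by limma 3.58.1 (trend, robust; R 4.3.3), and 5 contrasts and a test among groups were adjusted by Benjamini-Hochberg. Other software was numpy 2.4.6, pandas 2.3.3, matplotlib 3.10.9 and Python 3.11.15. In simulated data for both agents against busulfan over 13138 genes, log2 changes of 0.5, 1, 2 and 3 were called in 28%, 72%, 90% and 100% of 50 genes each, beside 13 unchanged genes. The changed genes were drawn only from those with a mean level above about 5 FPKM. Of the tested chemokine and receptor genes, 28 reached a group mean of 5 FPKM. Each simulated gene had the same normal spread in all groups, unlike the uneven busulfan libraries. The rates are therefore not the power for the chemokine and receptor genes.

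Members, lists and alternatives were chosen with earlier results of these data known. Named were Cxcr2, Cxcl12, Cxcl13 and Ccl19, every called gene, the 5 smallest p per test and the 12 most abundant genes. Other genes were named after their values were seen. A single tested gene entered the counts and is not reported here. The 23 alternatives comprised 11 settings and 12 left-out libraries. Counts of higher genes and values of every gene without the libraries in doubt were added after seeing the data. Coordinates and promoters are from RefSeq (GRCm38.p6).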

Additional observations from a re-analysis of the deposited data

How the results depend on the processing

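With both agents against busulfan, where 1 gene (Cxcr2) was called, the count was 0 with no filter on low values, when the fit held those 2 groups alone, without busulfan 1, busulfan 2 and L.J. 3, and with the acinar covariate, 2 with quantile normalization (Ackr3, Cxcr2) and 10 with library weights. It ranged from 0 to 11 when each library was left out. Library weights called 1 gene for busulfan against control (Cxcr2; 0.814% of all genes), 1 for both agents against control (Ccl3; 11.3%), 2 for the interaction (Ackr2, Cxcr2; 1.67%) and 4 among the groups (Ccl3, Ackr2, Cxcl10, Cxcr2; 12.3%), where 0 were called without weights. With each library left out, the count ranged from 0 to 6 for busulfan against control, 0 to 6 for the interaction and 0 to 5 among the groups. For L.J. against control it was 0 in all 23 alternatives, and for both agents against control 0 in 22 of 23. The cause of these shifts was not tested. Without busulfan 1, busulfan 2 and L.J. 3 the lone busulfan library is assumed to vary like the other groups.

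Over all genes, 218 were called with both agents against busulfan, against 18 with no filter, 0 when the fit held those 2 groups alone, 1 with the acinar covariate, 301 with quantile normalization, 304 with median of ratios, 1989 (15.1%) with library weights, 1378 without busulfan 3 and 755 without busulfan 1. Deviations from the group means correlated between -0.307 and 0.325 over 18 same-numbered pairs (median 0.028). Over 36 pairs with other numbers they correlated between -0.401 and 0.372 (median -0.03). Deviations within groups of 3 libraries cannot settle whether the replicate numbers pair the libraries. With the replicate number as a block, 1 member (Cxcr2, limma adjusted p = 0.0493) and 55 genes in all were called. The Cxcr5 difference of busulfan against control, -0.56, turned to 0.016 without busulfan 1, busulfan 2 and L.J. 3, and its interaction, 0.76, to -0.047 with the acinar covariate. Of the other values of single genes under alternatives, 547 kept direction and side of the threshold, 21 newly passed it and 43 no longer did. Depth is unknown, so values under 1 FPKM are the least certain.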

Other observations

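Ccl27b and Cxcl14, weakly expressed genes that were not tested, are given as values only. Ccl27b, a near-identical copy of the skin chemokine gene Ccl27a, was at 0, 0.08 and 0 FPKM with both agents, at 0.26, 0.43 and 1.49 FPKM with busulfan, at 1.66, 0.67 and 0.23 FPKM with L.J. and at 0.40, 1.29 and 0.17 FPKM in controls. All 3 libraries with both agents were below the other 9. Ccl27a had 2.64, 3.0 and 4.44 FPKM with both agents and 3.58, 4.88 and 2.86 FPKM with busulfan, which overlapped. Cxcl14, a chemokine of epithelia and stroma, had 0.11, 0.12 and 0.27 FPKM with both agents, 1.05, 0.61 and 0.47 FPKM with busulfan, 0.47, 0.45 and 0.36 FPKM with L.J. and 0.23, 0.22 and 0.89 FPKM in controls. Its libraries with both agents were below all busulfan and all L.J. libraries. Both genes were picked after their values were seen, and no test was made at these levels. How often other genes this low separate in the same way was not computed, so no group difference is claimed.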
